A study of Mus musculus with 3 samples.

Results

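Fibrillar collagens are the collagens whose long triple helices pack side by side into the fibrils that carry load in tendon. They were followed here across the cell classes of the flexor digitorum longus (FDL) tendon of the mouse by single-cell RNA sequencing (scRNAseq). The members are the 9 fibrillar collagen genes Col1a1, Col1a2, Col3a1, Col5a1, Col5a2, Col5a3, Col11a1, Col11a2 and Col2a1, chosen by symbol from the 32285 genes counted. Type I collagen, built from the Col1a1 and Col1a2 chains, makes up most of the tendon fibril. Type III collagen, from Col3a1 alone, is found in thinner fibrils and in the sheaths around and between fibre bundles. Types V (Col5a1, Col5a2, Col5a3) and XI (Col11a1, Col11a2) are minor fibrillar collagens known for starting fibrils and limiting their width, and type II (Col2a1) is the main collagen of cartilage.

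There were 3 libraries with 1 library per group, each from 16 pooled FDL tendons of mice of both sexes. The 6 M WT library came from Scx-Cre-; DTR F/+ mice and the 6 M DTR library from Scx-Cre+; DTR F/+ mice, in which Cre driven by the Scleraxis (Scx) promoter switches on a diphtheria toxin (DT) receptor in Scx-lineage cells. Mice of both groups carried the DTR allele and had 5 injections of DT at 3 months of age, the age given in the labels, and by the methods of the study their tendons were taken at 6 months. The 21 M B6 library came from C57BL/6J mice of 21 months, with neither DTR allele nor DT. The libraries are called WT, DTR and B6 below, and values are listed in that order. Digestion took 120 min for the tendons of WT and 90 min for those of the other groups. Digestion time cannot be told apart from genotype, and strain, alleles, DT and digestion time cannot be told apart from age. As each group is a single pool, no difference between libraries was tested, and all intervals given in parentheses are 95% intervals of counting error only.

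The libraries held 12273 to 16099 barcodes and 92707026 to 148149903 unique molecular identifiers (UMIs), and 4798 to 8357 cells passed the filter with a median of 12328 to 13008 UMIs per cell. Barcodes with over 10% mitochondrial counts, which were removed, made up 27.6% of WT, 43.1% of DTR and 56.5% of B6. Between 61 and 76 barcode sequences were shared by a pair of libraries, and 13 to 15 among kept cells. Clusters were made with all collagen genes left out and were named by marker genes. There were 5381 tenocyte-like cells in WT, 2660 in DTR and 1037 in B6, with 9 of 10 tenocyte markers raised. Epitenon fibroblast-like cells numbered 1589, 1674 and 2597, with 9 of 10 epitenon markers raised. The tenocyte-like share of all kept cells was 64.4%, 40.6% and 21.6%. The other classes were synovial lining-like, mural-like, endothelial-like, nerve (Schwann)-like, muscle satellite-like, macrophage-like and T cell-like. Levels are given as CPM, the summed UMIs of a gene in a class after the class totals of all libraries were scaled to the same number. Each UMI stands for 1 RNA molecule read at its 3′ end, so CPM was compared between genes without dividing by length.

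Fibrillar collagens were a large part of the RNA of tenocyte-like cells, at 1.41% of all UMIs in WT, 1.41% in DTR and 0.64% in B6. In epitenon-like cells they were 0.53%, 0.69% and 0.22%. Of the 9 members, 8 reached 5 CPM in at least 1 library in tenocyte-like cells and 7 in epitenon-like cells. The exceptions were Col2a1 in tenocyte-like cells and Col11a2 and Col2a1 in epitenon-like cells. For Col1a1 and Col3a1, the share of this RNA differed more between the classes than between the libraries. That did not hold for Col1a2 in B6. In tenocyte-like cells Col1a1 and Col1a2 together made up most of it, Col1a1 with 43.6%, 40.7% and 35.3% and Col1a2 with 44.2%, 39.5% and 42.2%. Col3a1 added 5.97%, 11.6% and 11.6% there, whereas in epitenon-like cells it made up 32.0%, 34.3% and 26.0%, beside 24.5%, 24.3% and 19.7% of Col1a1 and 27.8%, 26.5% and 34.6% of Col1a2.

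**Figure D1:**
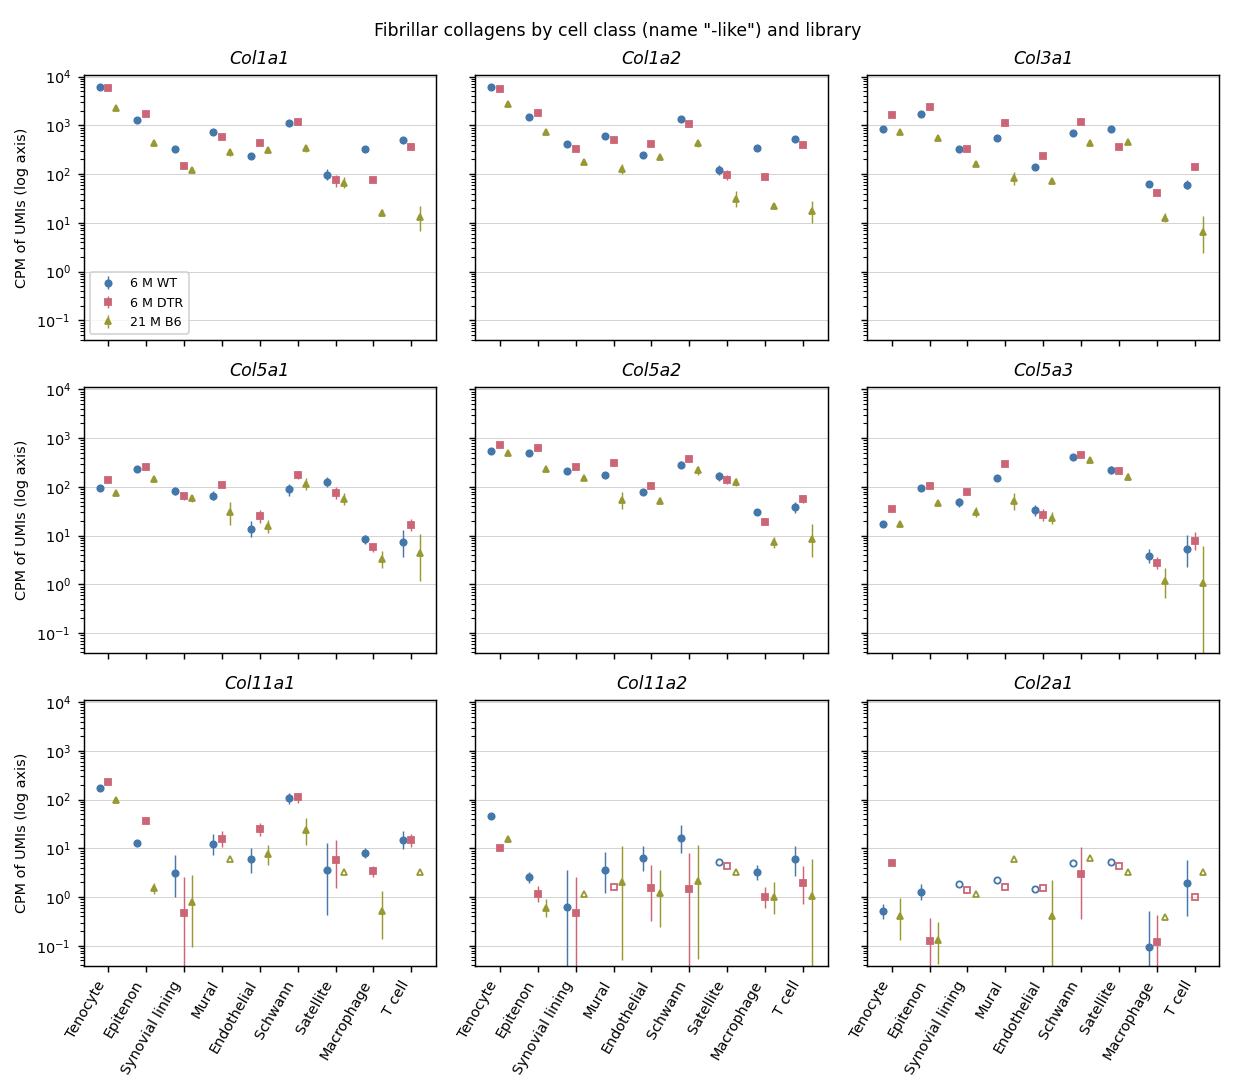
Level of each fibrillar collagen in CPM, on a logarithmic axis, for each cell class and each of the 3 libraries, with 95% counting intervals and open symbols at the level of 3 UMIs where none was counted. Type I and type XI chains are highest in tenocyte-like cells of all 3 libraries, and Col5a3 is highest in nerve (Schwann)-like cells.

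The type I chains were highest in tenocyte-like cells of every library. The level of Col1a1 (ENSMUSG00000001506, chromosome 11, 94936224 to 94953042 in GENCODE M21 on GRCm38) was 6165 CPM (6147 to 6183) in WT, 5756 CPM (5731 to 5781) in DTR and 2259 CPM (2232 to 2285) in B6. Epitenon-like cells came next with 1308 CPM (1294 to 1323), 1690.5 CPM (1674 to 1707) and 426 CPM (419 to 432). The tenocyte-like level thus exceeded the epitenon-like level 4.71-fold, 3.405-fold and 5.31-fold. The epitenon-like class includes a sub-cluster led by Wfdc1, described below, with more tenocyte marker RNA than the rest. It held 28.8%, 48.6% and 15.7% of the Col1a1 UMIs of the class, so these folds and their differences between libraries depend on it. Col1a2 (ENSMUSG00000029661, chromosome 6, 4504814 to 4541544) encodes the other chain of type I collagen and stood at 6251, 5582 and 2704 CPM in tenocyte-like cells. In epitenon-like cells it stood at 1484, 1838 and 746 CPM. Because the protein holds the chains in a fixed ratio, the balance of their transcripts was read within the same cells, where scaling plays no part. The Col1a1 to Col1a2 ratio was 0.986, 1.03 and 0.835 in tenocyte-like cells and 0.882, 0.920 and 0.570 in epitenon-like cells. Relative to Col1a2, Col1a1 was therefore lowest in B6 in both classes, by a factor of 0.847 (0.833 to 0.861) against WT in tenocyte-like and 0.647 (0.631 to 0.663) in epitenon-like cells. Without the Wfdc1-led cells the epitenon-like ratio was 0.812, 0.748 and 0.542. It was still lowest in B6, but the order of WT and DTR was turned.

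Type III collagen had the opposite order of classes in the 6-month libraries. Col3a1 (ENSMUSG00000026043, chromosome 1, 45311538 to 45349706) stood at 1707 CPM (1690 to 1724) in epitenon-like cells of WT, above 844 CPM (837 to 850.3) in tenocyte-like cells. In DTR the levels were 2380.1 CPM (2361 to 2399.8) and 1645 CPM (1632 to 1658). In B6 the order of these summed levels was turned, with 561 CPM (554 to 569) in epitenon-like and 745 CPM (730.1 to 761) in tenocyte-like cells. The epitenon-like level was thus 2.02-fold (1.998 to 2.05) above the tenocyte-like level in WT and 1.45-fold (1.43 to 1.46) above it in DTR, and in B6 the tenocyte-like level was 1.33-fold (1.30 to 1.36) above the epitenon-like one. Nerve (Schwann)-like and muscle satellite-like cells followed, and in DTR also mural-like cells. In WT muscle satellite-like cells did not differ from tenocyte-like cells in Col3a1 beyond counting error (828 against 844 CPM). The turned order of B6 was not seen in the median cell, which held 246 CPM of Col3a1 in epitenon-like and 171 CPM in tenocyte-like cells. There the highest 10% of tenocyte-like cells held 62.6% of the Col3a1 UMIs of their class.

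The type V chains did not share 1 order of classes. Col5a1 (ENSMUSG00000026837, chromosome 2, 27886425 to 28039514), the chain present in nearly all type V collagen, was highest in epitenon-like cells with 232, 253 and 147 CPM. Tenocyte-like cells held 94.0, 139 and 73.4 CPM of it. In B6 the epitenon-like level of Col5a1 and that of nerve (Schwann)-like cells (115 CPM) did not differ beyond counting error. Col5a2 (ENSMUSG00000026042, chromosome 1, 45374321 to 45503282), the chain that joins Col5a1 in the usual type V molecule, was instead higher in tenocyte-like cells, 1.12-fold, 1.13-fold and 2.14-fold. It reached 546, 721 and 492 CPM there and 489, 638 and 230.4 CPM in epitenon-like cells. Col5a3 (ENSMUSG00000004098, chromosome 9, 20770050 to 20815067), a chain of a rarer type V form, was lower in tenocyte-like cells than in the epitenon-like, synovial lining-like, mural-like, nerve (Schwann)-like and muscle satellite-like cells of each library. It stood at 17.6, 35.3 and 17.6 CPM in tenocyte-like and at 93.6, 106 and 46.8 CPM in epitenon-like cells. Its highest level in all 3 libraries was in nerve (Schwann)-like cells, at 401, 442 and 358 CPM, with the muscle satellite-like (221, 213 and 163 CPM) and mural-like cells (153, 299 and 52.0 CPM) next. In B6 the mural-like and epitenon-like levels did not differ beyond counting error. In GENCODE M21, Col1a2, Col3a1 and Col5a2 each overlap a predicted gene on the same strand, Gm43921, Gm47302 and Gm38211, and UMIs from such an overlap may have been set aside in counting.

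The ratios among these chains separated the classes. Col5a2 exceeded Col5a1 5.81-fold, 5.19-fold and 6.71-fold in tenocyte-like cells, and 2.11-fold, 2.52-fold and 1.56-fold in epitenon-like cells. The Col5a3 to Col5a1 ratio was 0.187, 0.254 and 0.240 in tenocyte-like cells. It was above 1 in the classes of nerve, vessel wall and muscle, with 4.54, 2.49 and 3.11 in nerve (Schwann)-like, 2.31, 2.74 and 1.73 in mural-like, and 1.75, 2.81 and 2.86 in muscle satellite-like cells. Endothelial-like cells as a class also had more Col5a3 than Col5a1 UMIs (67 against 28, 53 against 49 and 58 against 39). Of these Col5a3 UMIs, 91.0%, 90.6% and 82.8% came from a sub-cluster led by Enpep and Kcne4. Its mural markers summed to 6635 CPM and its endothelial markers to 3504 CPM. In the largest endothelial-like sub-cluster Col5a3 stood at 4.27, 3.01 and 7.47 CPM and Col5a1 at 4.27, 7.53 and 4.98 CPM. Synovial lining-like cells had more Col5a3 than Col5a1 UMIs in DTR (172 against 138). Relative to type I, Col5a1 was scarce in tenocyte-like cells. Its ratio to Col1a1 was 0.0153, 0.0241 and 0.0325 there, against 0.177, 0.150 and 0.346 in epitenon-like cells. Without the Wfdc1-led cells the epitenon-like ratio was 0.216, 0.228 and 0.377, and that of DTR was then not below that of WT.

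Most UMIs of the type XI chains came from tenocyte-like cells. Col11a1 (ENSMUSG00000027966, chromosome 3, 114030540 to 114220718) reached 174 CPM (171 to 177) in tenocyte-like cells of WT, 233 CPM (228 to 238) in DTR and 98.9 CPM (93.5 to 105) in B6. In epitenon-like cells it stood at 13.0 CPM (11.6 to 14.6), 37.0 CPM (34.6 to 39.5) and 1.54 CPM (1.17 to 1.98). The next level after tenocyte-like cells was that of nerve (Schwann)-like cells. It was 61.2%, 47.4% and 23.7% of the tenocyte-like level, from 65, 76 and 11 UMIs. Tnmd, a tenocyte gene, was at 16.0%, 8.52% and 0.468% in that class. The part of free RNA in this Col11a1 was not tested. Shares of UMIs also follow the number of cells in a class. Tenocyte-like cells held 96.1%, 87.8% and 92.8% of all Col11a1 UMIs of the classes. In these cells Col11a1 outnumbered Col5a1 1.85-fold, 1.68-fold and 1.35-fold, while in epitenon-like cells the same ratio was 0.0562, 0.146 and 0.0104. Col11a2 (ENSMUSG00000024330, chromosome 17, 34039437 to 34066685), the partner chain of Col11a1 in type XI, was lower. It had 45.7 CPM (44.1 to 47.3) in tenocyte-like cells of WT, 10.3 CPM (9.28 to 11.4) in DTR and 15.4 CPM (13.2 to 17.7) in B6. Its ratio to Col11a1 was 0.263, 0.0443 and 0.155.

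Col2a1 (ENSMUSG00000022483, chromosome 15, 97975602 to 98004695) was close to the limit of detection. It had 0.514 CPM in tenocyte-like cells of WT, 4.95 CPM in DTR and 0.406 CPM in B6, where 3 UMIs would be 0.042, 0.085 and 0.244 CPM. Its UMIs came from 30, 17 and 4 cells. In DTR 10 cells held 167 of the 174 UMIs and a single cell held 80, so the higher value of that library rests on a few cells. The markers fixed for chondrocytes, among which Col2a1 was not counted, summed to 83.0, 62.9 and 34.8 CPM in tenocyte-like cells, and 1, 2 and 2 of these 8 markers were at 0. Their part in the Col2a1 values was not tested.

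The sequences just upstream of Col3a1, Col5a1 and Col11a1 are given because the class with the highest sum of their transcripts was not the same. By these sums Col11a1 was highest in tenocyte-like cells, Col5a1 in epitenon-like cells, and Col3a1 in either with the library. They are from RefSeq (GRCm38.p6), which held such a window for 6 of the 9 members, and each run is the 250 bases before the start, 5′ to 3′ on the strand of the gene. Capitals mark matches on either strand to 3 motifs, which do not overlap each other here. The CCAAT motif is found in 33.8% of 32851 such windows, the TATAAA motif in 12.4% and the GGGCGG motif in 32.7%.
Col3a1 (chr1:45311288-45311537, plus strand): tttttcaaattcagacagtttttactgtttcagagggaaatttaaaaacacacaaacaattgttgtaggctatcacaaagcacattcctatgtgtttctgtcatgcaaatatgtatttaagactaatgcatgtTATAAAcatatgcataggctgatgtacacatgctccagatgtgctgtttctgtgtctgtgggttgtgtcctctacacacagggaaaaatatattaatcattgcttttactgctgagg
Col5a1 (chr2:27886175-27886424, plus strand): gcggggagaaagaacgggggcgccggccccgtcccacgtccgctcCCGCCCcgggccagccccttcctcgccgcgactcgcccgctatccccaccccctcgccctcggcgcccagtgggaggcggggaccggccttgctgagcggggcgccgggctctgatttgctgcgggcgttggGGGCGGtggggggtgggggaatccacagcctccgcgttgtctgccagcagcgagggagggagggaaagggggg
Col11a1 (chr3:114030290-114030539, plus strand): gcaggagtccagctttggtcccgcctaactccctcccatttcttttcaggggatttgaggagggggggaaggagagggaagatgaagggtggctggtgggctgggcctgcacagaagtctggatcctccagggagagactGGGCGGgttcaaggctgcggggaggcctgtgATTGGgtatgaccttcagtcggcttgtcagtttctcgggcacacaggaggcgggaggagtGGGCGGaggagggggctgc
The Col3a1 window was poor in G and C (35.2%) and held TATAAA 117 bases before the start, with neither other motif. The Col5a1 window was rich in them (76.4%) and held GGGCGG at 205 and 73 bases before the start. The Col11a1 window had 62.4% and held GGGCGG at 110 and 19 bases and CCAAT at 79 bases before the start. A match is a description of these letters and not of a factor bound there.

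**Figure D2:**
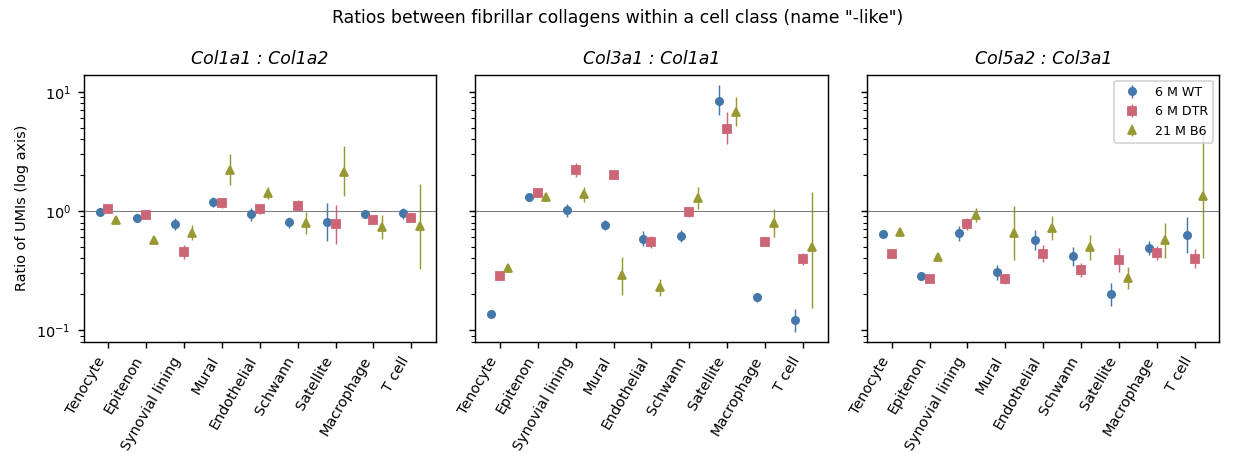
Ratios between pairs of fibrillar collagens counted in the same cells, on a logarithmic axis, by cell class and library, with 95% counting intervals. The Col3a1 to Col1a1 ratio lies between 0.137 and 0.330 in tenocyte-like cells and between 1.30 and 1.41 in epitenon-like cells. Without the Wfdc1-led sub-cluster of the epitenon-like class, which is not drawn apart, the latter lies between 1.37 and 2.11.

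The ratio of type III to type I collagen, often used to describe immature or repairing tendon matrix, separated the classes and moved with the library in tenocyte-like cells. In tenocyte-like cells there were 0.137 (0.136 to 0.138) Col3a1 UMIs per Col1a1 UMI in WT, 0.286 (0.283 to 0.288) in DTR and 0.330 in B6. These ratios were 2.09-fold (2.06 to 2.11) and 2.41-fold (2.35 to 2.47) that of WT. The same ratio in epitenon-like cells was 1.30 (1.28 to 1.32), 1.41 and 1.32, with factors of 1.08 (1.06 to 1.10) and 1.01 (0.986 to 1.04) against WT. These values include a sub-cluster led by Wfdc1, which held more tenocyte marker RNA than the other epitenon-like cells. Without it the ratio was 1.59, 2.11 and 1.37, and so differed more between the libraries. In tenocyte-like cells the ratio of DTR and that of B6 were reached by different levels. In DTR Col3a1 was 1.95-fold (1.93 to 1.97) that of WT in tenocyte-like cells while Col1a1 was 0.934-fold (0.929 to 0.939). In B6 Col3a1 was 0.883-fold that of WT and Col1a1 0.366-fold.

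**Figure D3:**
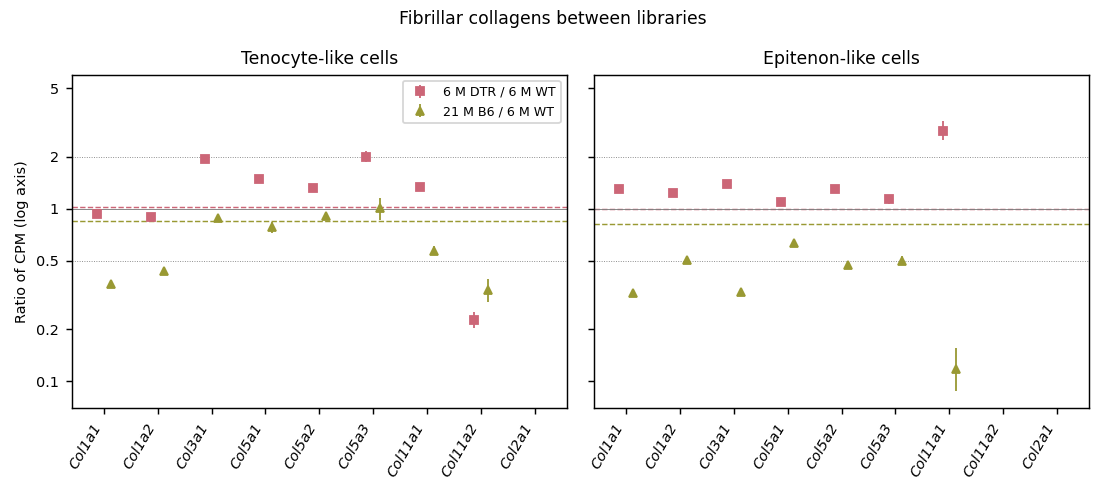
Ratio of the CPM of each fibrillar collagen in DTR and in B6 to that in WT, on a logarithmic axis, in tenocyte-like and epitenon-like cells with 95% counting intervals, and dashed lines at the median of all genes. Both comparisons share the WT library. Col11a2 is at 0.226 and 0.336 in tenocyte-like cells, and all tested members of epitenon-like cells lie below 1 in B6.

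The comparison of DTR with WT asks how cells that remained after DT had acted on Scx-lineage cells differ from those of DT-injected littermates. In tenocyte-like cells 1 member was higher by 2-fold or more, Col5a3 with 2.01-fold (1.85 to 2.17). Of all 9381 genes tested, those with at least 5 CPM in either library, 2.74% were past 2-fold in that direction. Col11a2 was the 1 member lower by 2-fold or more, at 0.226-fold (0.202 to 0.252), where 1.47% of all genes were. Between these lay Col3a1 (1.95-fold), Col5a1 (1.48-fold), Col11a1 (1.34-fold) and Col5a2 (1.32-fold), with Col1a2 (0.893-fold) and Col1a1 (0.934-fold) just under 1. The median log2 ratio of the 8 tested members was 0.41, against 0.03 for all genes. Col3a1 was above 1 under all 14 alternatives to the processing, with log2 ratios of 0.66 to 1.09, and Col11a2 below 1 under all of them, with −2.36 to −1.96. Col5a3 lies on the threshold, and it was not past 2-fold under 8 of 16 alternatives, the 14 and those on the filter of low values, among them scaling by TMM factors (1.86-fold) and female cells (1.76-fold, 1.56 to 1.98). Col3a1 was past it under 5 of the 16, with 2.02-fold in female cells. The ratios of Col1a1 and Col1a2 were below 1 in female and above 1 in male cells, so no direction is given for type I. Nor is one given for Col11a1, at 0.992-fold (0.944 to 1.04) in female and 1.53-fold in male cells. Markers of myofibres summed to 67.9 CPM in tenocyte-like cells of WT, 426 CPM in DTR and 374 CPM in B6. None of the 8 myofibre markers was at 0 in any library, and their part in these ratios was not tested. With the 19, 30 and 14 cells of a myofibre-like cluster left out, Col5a3 (2.01-fold) was higher and Col11a2 (0.226-fold) lower by 2-fold or more.

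Between B6 and WT, no member was higher by 2-fold or more in tenocyte-like cells, where 3.92% of all genes were. Lower by 2-fold or more were 3 members, against 2.57% of all genes: Col11a2 (0.336-fold, 0.289 to 0.389), Col1a1 (0.366-fold) and Col1a2 (0.433-fold). Col11a1 was at 0.570-fold and Col5a1 at 0.780-fold. Col3a1 (0.883-fold) and Col5a2 (0.902-fold) were nearer to 1, and Col5a3 summed over the class did not differ beyond counting error (1.00, 0.864 to 1.16). In the main tenocyte-like sub-cluster, described below, Col5a3 was lower at 0.769-fold (0.635 to 0.925). In a smaller sub-cluster led by Tac1 it was at 1.08-fold (0.812 to 1.43). The Tac1-led cells held 9.96% of the Col5a3 UMIs of the class in WT and 40.6% in B6. The median log2 ratio was −0.58 for the members and −0.24 for all genes. With TMM scaling, Col3a1 and Col5a2 came to the other side of 1 (log2 ratios of 0.02 and 0.05), so no direction is given for either. The median mitochondrial share was 2.77% in tenocyte-like cells of WT, 2.86% in DTR and 5.60% in B6. With cells over 5% left out, 2 members in place of 3, Col1a1 and Col11a2, were lower by 2-fold or more, and Col3a1 and Col5a2 lay above 1 (log2 ratios of 0.30 and 0.17). Col5a1 came nearest to 1 under this limit among the 14 alternatives, with a log2 ratio of −0.085 against −0.36 in the main processing. All members were recomputed under it, but the part of the mitochondrial share in their ratios was not tested. Col1a2 was also not past 2-fold in male cells (0.517-fold, 0.508 to 0.526), and Col11a1 was past it in female cells (0.490-fold, 0.443 to 0.541).

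Epitenon-like cells gave other results in the same libraries. In DTR, Col11a1 was higher by 2-fold or more than in WT (2.84-fold, 2.49 to 3.24), where 0.867% of all genes were, and 0 members were lower, where 1.79% were. The remaining 6 tested members lay between 1.09-fold (Col5a1) and 1.39-fold (Col3a1), with Col1a1 at 1.29-fold and Col1a2 at 1.24-fold. Of these, Col3a1 and Col5a2 stayed above 1 under all 14 alternatives. Col11a1, Col1a1, Col1a2 and Col5a1 lay below 1 with clustering at a finer resolution, Col5a3 in female cells, and Col11a1 and Col1a1 also without the sub-cluster of epitenon-like cells that was led by Wfdc1. No direction is given for these 5. In B6, 0 members were higher, where 1.95% of all genes were, and 4 of 7 were lower by 2-fold or more, where 3.06% were. These were Col11a1 (0.118-fold, 0.087 to 0.156), Col1a1 (0.325-fold), Col3a1 (0.329-fold) and Col5a2 (0.471-fold). Col5a2 was not past 2-fold with TMM scaling (0.595-fold) or without integration (0.504-fold). Col5a3 (0.500-fold) and Col1a2 (0.503-fold) lay just short of the threshold and were past it under 4 and 2 of 16 alternatives, and Col5a1 was at 0.636-fold. Without the Wfdc1-led cells the same 4 members were lower, with 0.130-fold for Col11a1, 0.366-fold for Col1a1, 0.315-fold for Col3a1 and 0.472-fold for Col5a2. The Col11a1 level of WT, to which both of its ratios refer, was 7.51% of the tenocyte-like level. That share lay among those of the tenocyte genes given with the free RNA. The median log2 ratio of the members was 0.37 in DTR and −1.09 in B6, against 0.00 and −0.30 for all genes. The median of DTR is the value of Col1a1, for which no direction is given. Without the Wfdc1-led cells Col1a1 was at −0.052, so no direction is given for the DTR median either. Median mitochondrial shares of epitenon-like cells were 2.59%, 2.63% and 4.49%.

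The libraries also differed in the share of a member's UMIs that each class gave. Tenocyte-like cells gave 92.2% of the Col1a1 UMIs of WT, 81.6% of DTR and 61.2% of B6. Epitenon-like cells gave 38.3%, 47.2% and 66.8% of Col3a1, 42.7%, 51.8% and 81.8% of Col5a1 and 51.7%, 49.8% and 71.5% of Col5a3. These shares describe captured cells after digestion, not tissue, and they follow the number of cells in a class. Epitenon-like cells were 19.0%, 25.5% and 54.1% of kept cells.

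Free RNA in the droplets can give UMIs to cells without their own expression. Col1a1 in macrophage-like cells was 5.30% of the tenocyte-like level in WT, and Tnmd, a tenocyte gene, was 4.06%. After each cell was thinned to 2000 UMIs, at least 1 UMI of Col1a1 was left in 92.0% (91.3 to 92.8), 92.0% and 75.5% (72.7 to 78.1) of the tenocyte-like cells. For epitenon-like cells the shares were 72.1%, 70.2% and 44.1%. Macrophage-like cells were positive in 13.3%, 10.3% and 3.39% of cases. Col3a1 was detected in 48.0% (46.6 to 49.3), 67.8% (66.0 to 69.6) and 40.1% of tenocyte-like cells, in 78.5%, 79.2% and 45.4% of epitenon-like cells and in 5.97%, 4.97% and 2.26% of macrophage-like cells. Without thinning, Col3a1 was found in 76.9%, 90.5% and 64.8% of tenocyte-like cells. Median depths were 12871, 12487.5 and 11016 UMIs in tenocyte-like and 15610.5, 13289 and 13847 UMIs in macrophage-like cells. Col11a1 was detected in 26.2%, 29.4% and 15.4% of thinned tenocyte-like cells and in 2.02%, 4.79% and 0.193% of epitenon-like cells, and Col11a2 in 8.01%, 1.84% and 2.99% of tenocyte-like cells. In macrophage-like cells these shares were 1.34%, 0.686% and 0.188% for Col11a1 and 0.597%, 0.172% and 0.188% for Col11a2. The level of Col11a1 in epitenon-like cells was 7.51%, 15.9% and 1.55% of the tenocyte-like level. Of 3 tenocyte genes, Tnmd was at 5.83%, 9.30% and 2.14% there, Chad at 5.53%, 5.48% and 1.16%, and Fmod at 9.16%, 11.8% and 1.29%. The Col11a1 share of epitenon-like cells lay among these shares in WT and B6, and only that of DTR lay above all 3. The class includes the Wfdc1-led cells, in which tenocyte markers summed to 8569 CPM, so these shares do not measure free RNA alone. The part of free RNA in the Col11a1 of this class was not tested.

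Free RNA from 1 source keeps its genes in 1 ratio in every class, so the Col3a1 to Col1a1 ratio was read for it. In WT it was 0.122 (0.0968 to 0.151) in T cell-like cells, within counting error of the 0.137 of tenocyte-like cells, with 498 CPM of Col1a1. In DTR it was 0.396 (0.353 to 0.444) in T cell-like cells, above the 0.286 of tenocyte-like cells, and in B6 too few UMIs were counted to separate the classes (0.154 to 1.44). In macrophage-like cells it was 0.188 (0.173 to 0.205), 0.554 (0.504 to 0.608) and 0.787 (0.5997 to 1.03), above that of tenocyte-like cells in each library. Barcodes with under 1000 genes were at 0.665, 0.879 and 0.355. In macrophage-like cells and in T cell-like cells of DTR the ratio was thus not that of tenocyte-like cells alone, and the source of these UMIs was not tested. Nerve (Schwann)-like cells held 1109, 1191 and 341 CPM of Col1a1, which was 18.0%, 20.7% and 15.1% of the tenocyte-like level. Tnmd stood at 16.0%, 8.52% and 0.468% there, Chad at 12.7%, 3.505% and 0.149%, and Fmod at 17.0%, 15.1% and 0.466%. The Col1a1 share of this class was close to those of Tnmd and Fmod in WT and far above all 3 in B6. These sums are of 88, 106 and 54 cells. The highest 10% of them held 71.2%, 68.9% and 45.6% of the Col1a1 UMIs. The median cell held 321, 476 and 309 CPM, so the lower sum of B6 against WT was hardly seen there. In muscle satellite-like cells the Col3a1 to Col1a1 ratio was 8.43, 4.90 and 6.75, with 828, 364 and 452 CPM of Col3a1 against 98.3, 74.2 and 66.9 CPM of Col1a1.

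**Figure D4:**
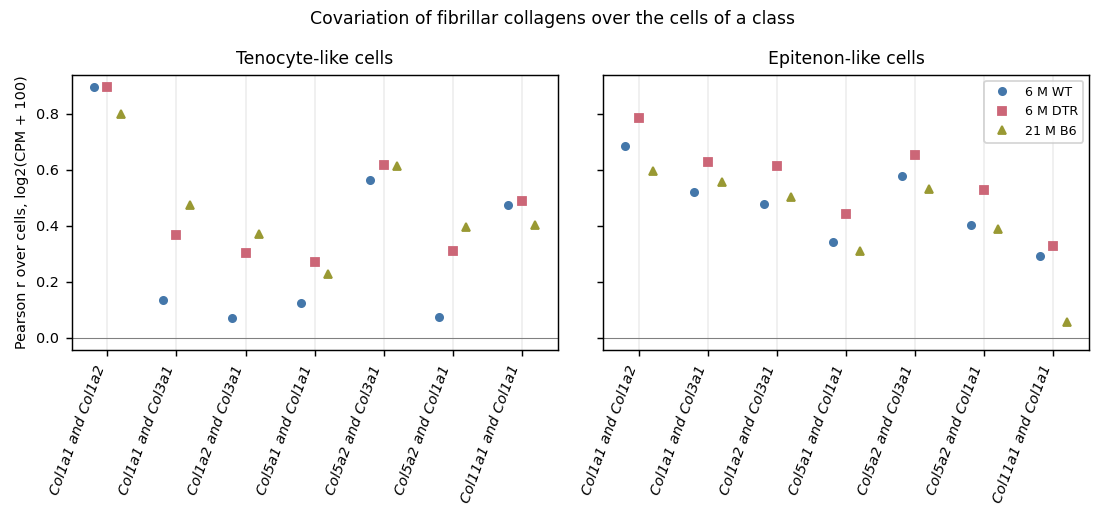
Correlation across cells of pairs of fibrillar collagens on the scale log2(CPM + 100), in tenocyte-like and epitenon-like cells of each library. The Col1a1 with Col1a2 pair reaches 0.90 in tenocyte-like cells of WT, whereas the Col1a1 with Col3a1 pair is at 0.13.

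Across single cells some pairs of members went together more closely than others. Points are cells of 1 library, which share its depth and its free RNA. Pearson's r between Col1a1 and Col1a2 in tenocyte-like cells was 0.90 in WT, 0.90 in DTR and 0.80 in B6, and in epitenon-like cells 0.69, 0.78 and 0.60. Between Col1a1 and Col3a1 it was 0.13, 0.37 and 0.48 in tenocyte-like and 0.52, 0.63 and 0.56 in epitenon-like cells. Col5a2 followed Col3a1 more closely than Col1a1 in tenocyte-like cells of all 3 libraries, with r of 0.56, 0.62 and 0.61 against 0.07, 0.31 and 0.40. Col11a1 followed Col1a1, with 0.48, 0.49 and 0.40 in tenocyte-like cells. Type I and type III transcripts were thus nearly unrelated among tenocyte-like cells of WT and moved together to some degree in the other libraries, as descriptions of 5381, 2660 and 1037 cells.

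The mixture of type III and type I within single tenocyte-like cells was taken from cells with at least 20 UMIs of the pair, 4106 in WT, 2075 in DTR and 450 in B6. The median cell had 8.51% of these UMIs from Col3a1 in WT, 21.9% in DTR and 21.4% in B6. Cells with more Col3a1 than Col1a1 made up 5.72%, 13.3% and 9.78%. The higher ratio of the sums was therefore also seen in the median of the cells that met this limit. These were 4106 of 5381 cells in WT, 2075 of 2660 in DTR and 450 of 1037 in B6. As the limit is on the genes of the ratio, cells low in both are left out, most of all in B6. In epitenon-like cells the median share was 59.1%, 63.4% and 59.3%, over 962 of 1589, 1033 of 1674 and 510 of 2597 cells. Expression was uneven among cells: the highest 10% of tenocyte-like cells held 43.7%, 45.0% and 47.9% of Col1a1 UMIs and 53.4%, 47.2% and 62.6% of Col3a1 UMIs.

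**Figure D5:**
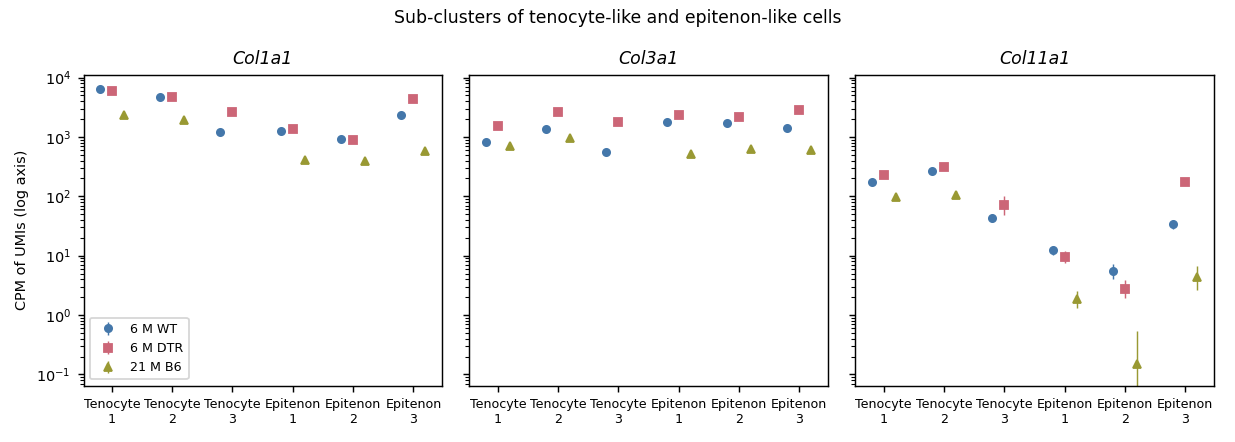
Level of Col1a1, Col3a1 and Col11a1 in CPM, on a logarithmic axis, in the sub-clusters of tenocyte-like and epitenon-like cells of each library with at least 20 cells, numbered in the order of the text, with 95% counting intervals. Col11a1 in the Wfdc1-led sub-cluster of the epitenon-like class is at 34.0, 174 and 4.32 CPM.

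Tenocyte-like cells re-clustered without collagen genes gave a main sub-cluster led by Adig, Chad, Omd and Vcan with 4982, 2337 and 898 cells. A smaller sub-cluster was led by Tac1, Chodl, Mstn and Tnfaip6 and had 206, 302 and 137 cells. The smallest, led by Slpi, Lcn2, Mmp3 and Saa3, had 193, 21 and 2 cells. In the main sub-cluster the ratios of DTR to WT were 1.82 for Col3a1, 1.71 for Col5a3 and 0.228 for Col11a2, and in the sub-cluster led by Tac1 they were 1.91, 1.48 and 0.188. The Tac1-led sub-cluster held more Col3a1 than the main one in each library, with 0.293, 0.560 and 0.507 Col3a1 UMIs per Col1a1 UMI against 0.129, 0.257 and 0.304. Its myofibre markers summed to 2123 CPM, against 59.3 CPM in the main sub-cluster, and their part in the ratio was not tested. The 21 cells of the Slpi-led sub-cluster in DTR held 11.7% of the Col5a3 UMIs of tenocyte-like cells of that library at 357 CPM, where the main sub-cluster had 27.3 CPM. In neither larger sub-cluster did Col5a3 reach a 2-fold ratio. The B6 to WT ratio of Col1a1 was 0.358 in the main and 0.405 in the Tac1-led sub-cluster.

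The epitenon-like sub-clusters differed more. They were led by Ifi205, Ccl11, Ptx3 and Il6 (650, 477 and 1388 cells), by Slurp1, Slc38a1, Arnt2 and Ttll7 (632, 820 and 844 cells), and by Wfdc1, Spp1, Ecrg4 and Chad (307, 377 and 365 cells). The Wfdc1-led cells, whose leading genes also include Cilp2 and Fibin, held tenocyte markers at a summed 8569 CPM, against 1458 and 2155 CPM in the other epitenon-like sub-clusters and 20998 CPM in the main tenocyte-like sub-cluster. Their epitenon markers summed to 2259 CPM, against 5075 and 6865 CPM in the other sub-clusters. These markers go against the name of the class, so the sub-cluster is called by its leading gene, and its cells are part of all class values. Without them the Col3a1 to Col1a1 ratio of the class was 1.59, 2.11 and 1.37. Their Col3a1 to Col1a1 ratio of 0.594, 0.663 and 1.05 lay between those of the tenocyte-like class and of the other epitenon-like sub-clusters (1.24 to 2.47). They also held 41.9%, 88.4% and 32.8% of the Col11a1 UMIs of the epitenon-like class. The DTR to WT ratio of Col11a1 was 5.12 (4.24 to 6.23) in the Wfdc1-led cells, 0.774 (0.567 to 1.05) in the Ifi205-led and 0.510 (0.321 to 0.800) in the Slurp1-led cells. In the class without the Wfdc1-led cells it was 0.586, where it was 2.84 with them. The ratio of Col1a1 was 1.86, 1.08 and 0.953 in the same order. Col3a1 was above 1 in each, with 2.08, 1.33 and 1.25. Col5a3 went the other way, with 0.641 in the Wfdc1-led cells and 1.36 and 1.59 in the others. Against WT, the B6 values of Col1a1, Col1a2, Col3a1, Col5a1, Col5a2, Col5a3 and Col11a1 were lower in all 3 epitenon-like sub-clusters.

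The other stromal classes had collagen mixtures of their own. Mural-like cells, which wrap small vessels, numbered 153, 205 and 48. They held 564, 1131 and 82.0 CPM of Col3a1 and 738, 569 and 284 CPM of Col1a1. The ratio of these sums was 0.764 (0.695 to 0.840), 1.99 (1.85 to 2.14) and 0.289 (0.199 to 0.411). The highest 10% of cells held 70.8%, 55.6% and 40.8% of the Col1a1 UMIs. The median cell had 304, 913 and 0 CPM of Col3a1 and 285, 298 and 178 CPM of Col1a1. In WT the ratio below 1 was thus not seen in these medians. The summed Col1a1 of mural-like cells was 12.0%, 9.88% and 12.6% of the tenocyte-like level. Of the tenocyte genes, Tnmd was at 16.8%, 11.2% and 13.6% there, Chad at 6.08%, 3.599% and 0.558%, and Fmod at 7.69%, 4.49% and 0.407%. The Col1a1 share lay below that of Tnmd and above those of Chad and Fmod in each library, so the part of free RNA in it is not settled. Synovial lining-like cells held 326, 147 and 119 CPM of Col1a1, 330.5, 325 and 164 CPM of Col3a1, and 215, 254 and 152 CPM of Col5a2. Endothelial-like cells had 236, 428 and 314 CPM of Col1a1, but in their largest sub-cluster it was 62.4, 36.9 and 19.9 CPM. The Col1a1 of the class was held mainly by a sub-cluster led by Enpep and Kcne4, in which mural markers summed to 6635 CPM and tenocyte markers to 2140 CPM, against 1302 and 144 CPM in the largest sub-cluster. Their part in its Col1a1 was not tested. There Col1a1 stood at 551, 1544 and 613 CPM. Of the fibrillar collagens outside the 9, Col27a1 was highest in nerve (Schwann)-like cells at 234, 279 and 217 CPM, above 23.9, 26.7 and 11.2 CPM in tenocyte-like cells. Col24a1 was at 0.389, 3.84 and 1.22 CPM in tenocyte-like cells.

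Cells of both sexes were pooled and their shares differed between libraries. Cells with Xist and no Y-linked UMI, called female, numbered 3338, 911 and 393 among tenocyte-like cells, and those called male 1237, 1194 and 355. In WT the Col3a1 level was 729 CPM in female and 1180.1 CPM in male tenocyte-like cells, in DTR 1476 and 1867 CPM, and in B6 775 and 857 CPM. The Col3a1 to Col1a1 ratio was 0.118, 0.298 and 0.377 in female and 0.194, 0.285 and 0.318 in male cells. The ratio was thus lowest in WT in either sex, and WT, which had the largest female share, also had the largest gap between the sexes. In epitenon-like cells it was 1.47, 1.71 and 1.52 in female and 1.18, 1.29 and 1.20 in male cells.

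Genes that process collagen were read from 6 lists of 41 genes, of which 36 were tested in tenocyte-like and 35 in epitenon-like cells. In tenocyte-like cells of DTR, 4 were higher and 1 lower by 2-fold or more than in WT, where 2.74% and 1.47% of all genes were. Mmp13, a collagenase, was 11.8-fold higher (3.22 CPM in WT and 38.1 CPM in DTR) and Mmp2, a gelatinase, 6.50-fold (92.0 and 598 CPM). Ctsk, which encodes the collagen-cleaving protease cathepsin K, was 2.25-fold higher. Among the crosslinking enzymes, Loxl1 was 2.98-fold higher and Loxl4 0.430-fold, while Lox, the main lysyl oxidase, was at 0.911-fold. No gene of prolyl hydroxylation and chaperones, lysyl hydroxylation and glycosylation, secretion or propeptide removal was past 2-fold in tenocyte-like cells of DTR or B6. Serpinh1, the collagen chaperone, was at 1.13-fold in DTR and 0.923-fold in B6, where Col1a1 was at 0.366-fold. Serpinh1 does not stand for its list. The median log2 ratio of the 12 genes of prolyl hydroxylation and chaperones was 0.11 in DTR and −0.46 in B6, against 0.03 and −0.24 for all genes. In B6, where 3.92% of all genes were higher and 2.57% lower, 3 of the 36 were higher and 0 lower in tenocyte-like cells, namely Loxl1 (4.22-fold), Mmp13 (3.33-fold) and Mmp2 (3.20-fold). In epitenon-like cells of DTR 1 of 35 was higher, Ctsk (2.15-fold), and 1 lower, Loxl4 (0.370-fold), where 0.867% and 1.79% of all genes were. In those of B6 0 were higher and 1 lower, the prolyl hydroxylase P3h2 (0.159-fold), where 1.95% and 3.06% of all genes were.

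The genes most like the members were sought over 26 class sums of at least 50 cells among 6399 genes, by Pearson's r of log2(CPM + 1). The sums share libraries and the tenocyte-like and epitenon-like classes weigh on all of them, so r is a description. Fibin, Fmod, Tnmd and Thbs4 are also among the markers that named the tenocyte-like class. Their nearness to a member that is high in that class is therefore no separate result. The part of free RNA in the sums of other classes, and so in r, was not tested. Nearest to Col1a1 were Col1a2 (0.982), Fibin (0.915), Fmod (0.904), Dcn (0.900) and Thbs4 (0.894). Nearest to Col11a1 were Fibin (0.957), Fmod (0.885), Col1a1 (0.880), Tnmd (0.878) and Thbs4 (0.871). Nearest to Col3a1 were Col5a2 (0.963), Col6a1 (0.960), Col5a1 (0.949), Col6a2 (0.937) and Bicc1 (0.926), and nearest to Col5a1 were Fat1 (0.957), Col6a1 (0.9503), Col3a1 (0.949), Antxr1 (0.941) and Gpx8 (0.941). In these sums Col11a1 was thus near to Col1a1, and Col5a1 and Col5a2 were near to Col3a1. The other chains were less close. Col11a2 was at 0.668 with Col1a1, below Col5a2 (0.783) and Col3a1 (0.736), and Col5a3 was at 0.790 with Col3a1. Across single tenocyte-like cells, Col11a1 went with Col1a1 and Col5a2 with Col3a1. In epitenon-like cells r was 0.29, 0.33 and 0.06 for Col11a1 with Col1a1, and 0.58, 0.65 and 0.53 for Col5a2 with Col3a1. Only 303, 878 and 58 Col11a1 UMIs were counted in these 1589, 1674 and 2597 cells. The r of Col11a1 there is limited by low counts and cannot be compared with that of Col5a2 with Col3a1. Col11a1 was not set against Col3a1 across cells. Of the windows printed above, those of Col3a1 and Col5a1 shared none of the 3 motifs, while Col5a1 and Col11a1 shared GGGCGG, which is found in 32.7% of all windows. A link between motifs and levels was not tested.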

How the data were processed

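FDL tendon cells of 3 libraries were profiled with 10x Genomics Chromium 3′ chemistry. The authors deposited UMI counts per gene and barcode without normalization, from Cell Ranger. The file headers give version 6.0.1 and the submitters' processing notes 2.1.1. The build is not given in the sources used here. Gene positions were taken by Ensembl identifier from GENCODE M21 (GRCm38). The files held no column of an unknown sample. All other values were computed from these counts.

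The filter of the study (1000 to 5000 genes, mitochondrial counts up to 10%) left cells that hold 69.3% to 76.6% of the UMIs. They were log-normalized, integrated over 20 dimensions on 2000 variable features and clustered at a resolution of 0.1 in R 4.3.3 with Seurat 5.3.0, without collagen genes and genes that process collagen among the features. A cluster was given a name where 3 or more of its markers were raised 2-fold and seen in 10% of its cells. Doublets were kept. Since Scrublet's automatic threshold called 6, 1 and 1 cells of 6 M DTR, 6 M WT and 21 M B6, the cells with the highest 5% of scores were removed in an alternative.

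UMIs were summed per class and library and scaled to CPM with Python 3.11.15, numpy 2.4.6, scipy 1.17.1 and pandas 2.3.3. Levels have exact Poisson intervals, and shares and ratios exact binomial ones, at 95%. No test was made, as a group is 1 library. The 2-fold counts used genes with at least 5 CPM in either library. Shares of positive cells followed thinning to 2000 UMIs, with at most 6 shallower cells left out of a tenocyte-like or epitenon-like class. The calculation of ratios was tested on simulated counts. The genes named are the 9 members in every class, Col24a1 and Col27a1 by level, of each list of collagen-processing genes at most the 2 highest and 2 lowest past 2-fold, and the 5 genes nearest to Col1a1, Col3a1, Col5a1 and Col11a1. Serpinh1, Lox, and Ctsk in tenocyte-like cells were chosen after their values were seen. Members and lists were chosen with earlier results of these data known. Alternatives changed the filters, doublets, integration, features, resolution, class rule, scaling (edgeR 4.0.16), weighting of cells, sex of the cells and thinning. Leaving out Wfdc1-led cells, myofibre-like cells or mitochondrial totals was chosen after seeing the data.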

Additional observations from a re-analysis of the deposited data

Results flagged for a closer look

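Some ratios lay on opposite sides of 1 in cells called female and male, or in tenocyte-like and epitenon-like cells. With 1 library per group none of these differences was tested. In tenocyte-like cells the ratio of 6 M DTR to 6 M WT was 0.804 in female and 1.08 in male cells for Col1a1, and 0.759 and 1.04 for Col1a2. The ratio of 21 M B6 to 6 M WT was 1.06 in female and 0.726 in male tenocyte-like cells for Col3a1, and 1.10 and 0.729 for Col5a2. In epitenon-like cells the ratio of 6 M DTR to 6 M WT for Col5a3 was 0.861 in female and 1.67 in male cells.

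Between the classes, the ratio of 6 M DTR to 6 M WT was 0.934 in tenocyte-like and 1.29 in epitenon-like cells for Col1a1, and 0.893 and 1.24 for Col1a2. For Col2a1 it was 9.62 in tenocyte-like and 0.0979 in epitenon-like cells. These Col2a1 counts were 37 and 174 UMIs in tenocyte-like cells and 30 and 3 in epitenon-like cells, and 13 of the 30 came from 1 cell.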

How the results depend on the processing

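No paired analysis was possible because each group had 1 library and the labels give no replicates to pair. Ratios rest on 1 pool per group, so no alternative measures the spread between animals. Depth limits Col2a1 and, in epitenon-like cells, Col11a2. The Col3a1 to Col1a1 ratio stayed below 1 in tenocyte-like and above 1 in epitenon-like cells in all 3 libraries under all 14 alternatives. The cause of the following changes was not tested.

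In tenocyte-like cells the number of members higher by 2-fold or more in 6 M DTR was 2 in place of 1 without integration, with collagen genes kept among the features, with totals without collagen or mitochondrial genes, in male cells and with no filter on low values, and 0 with TMM factors or equal weight per cell. It was also 1 in female cells, with marker scores and with no upper limit on genes, but Col3a1 took the place of Col5a3, and with the 5% mitochondrial limit, doublets removed or resolution 0.2, where Col2a1 did. In epitenon-like cells it was 0 in place of 1 with no upper limit on genes, resolution 0.2, no integration, collagen genes kept, classes from marker scores, female cells, or without the Wfdc1-led cells. The number of lower members there was 1 in place of 0 at resolution 0.2, without integration and with collagen genes kept, and 2 with no filter.

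Log2 ratios of 6 M DTR to 6 M WT changed sign in tenocyte-like cells for Col1a1 (0.10) and Col1a2 (0.063) in male cells, Col11a1 in female cells (−0.012) and Col2a1 with marker scores (−1.12). In epitenon-like cells Col5a3 did so in female cells (−0.22). With no upper limit on genes, Col1a1 was at −0.027 and Col11a1 at −0.57. At resolution 0.2, Col1a1 was at −0.16, Col1a2 at −0.016, Col5a1 at −0.053 and Col11a1 at −1.001. Without integration, Col1a1 was at −0.21, Col1a2 at −0.041 and Col11a1 at −1.21, and with collagen genes kept at −0.16, −0.012 and −1.13. With marker scores, Col1a1 was at −0.15, Col1a2 at −0.014, Col5a1 at −0.051 and Col11a1 at −0.15. Without the Wfdc1-led cells, Col1a1 was at −0.052 and Col11a1 at −0.77.

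Log2 ratios of 21 M B6 to 6 M WT changed sign in tenocyte-like cells for Col3a1 and Col5a2 under the 5% mitochondrial limit (0.30 and 0.17), marker scores (0.45 and 0.23), TMM factors (0.017 and 0.047) and in female cells (0.088 and 0.14), and in epitenon-like cells for Col2a1 with marker scores (0.11).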
